A study of Mus musculus with 111 samples.

Results

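The immediate early transcription factors described here are 10 genes: Fos, Fosb, Fosl1, Jun, Junb, Atf3, Egr1, Egr2, Egr3 and Myc. They were taken by name, and every probeset of the deposited values annotated to 1 of these genes alone was used. This gave 14 of the 32688 probesets with deposited values. With the most variable probeset kept for each gene they were 10 of 15707 genes. Male, young adult C57BL6/J mice received 1 intratracheal dose of bleomycin (2 U/kg), an antibiotic that breaks DNA, or of saline, the vehicle, and whole lungs were taken on days 1 and 2, on days 7 and 14, and on days 21, 28 and 35. There were 56 bleomycin mice, 8 for each day, and 55 saline mice, 8 for each day and 7 on day 14, where the authors had set 1 saline array aside. The labels name no transgene or mutant allele, and each mouse gave 1 Affymetrix mouse expression array. Both lungs of a mouse were homogenized together, so fewer cells of a type and less RNA per cell cannot be told apart. The labels give no harvest hour, scan date or other batch, so a difference between days cannot be told apart from a difference in how the animals of those days were handled.

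Immediate early genes are transcribed within minutes of a growth factor, cytokine, mechanical or stress signal, from proteins the cell already holds, and most of their transcripts decay quickly. Fos and Jun family proteins pair through leucine zippers to form AP-1, which binds promoters of proteases, cytokines and cell cycle genes, and Atf3 is a stress-induced partner of the same class. Egr proteins are zinc finger factors induced by way of serum response factor, and Myc pairs with Max to drive ribosome production and growth. In injured lung AP-1 and Egr1 are known for their part in inflammation and matrix remodelling, and these genes are also induced by the handling and dissection of tissue.

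Promoter sequences were read from RefSeq (GRCm38.p6), which gave 6 of the 10 members. Those of Fos, Egr2, Fosb, Junb, Jun and Atf3 are shown because they hold, within 140 bases before the transcription start, sequences known to link such genes to incoming signals. Each is written 5′ to 3′ on the strand of its gene. Capitals mark the CArG box, which serum response factor binds, TGACG, the core of the site for cAMP response factors, and TGACATCA, a variant of the AP-1 site, each searched on both strands. The positions are chr12:85473750-85473889 (plus strand) for Fos, chr10:67537729-67537868 (plus strand) for 1 of the starts of Egr2, chr7:19310046-19310185 (minus strand) for Fosb, chr8:84978749-84978888 (minus strand) for Junb, chr4:95052223-95052362 (minus strand) for Jun and chr1:191183334-191183473 (minus strand) for Atf3.
Fos: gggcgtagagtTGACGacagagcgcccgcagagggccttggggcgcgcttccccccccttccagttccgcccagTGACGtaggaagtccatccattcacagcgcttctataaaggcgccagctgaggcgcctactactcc
Egr2: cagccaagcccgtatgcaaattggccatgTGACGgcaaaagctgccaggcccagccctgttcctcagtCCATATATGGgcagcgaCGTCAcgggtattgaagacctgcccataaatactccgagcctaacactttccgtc
Fosb: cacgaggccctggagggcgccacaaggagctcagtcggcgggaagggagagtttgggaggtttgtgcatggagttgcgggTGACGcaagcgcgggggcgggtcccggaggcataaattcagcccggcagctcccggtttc
Junb: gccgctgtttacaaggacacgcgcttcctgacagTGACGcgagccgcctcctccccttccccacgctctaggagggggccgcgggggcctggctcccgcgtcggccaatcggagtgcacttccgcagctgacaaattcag
Jun: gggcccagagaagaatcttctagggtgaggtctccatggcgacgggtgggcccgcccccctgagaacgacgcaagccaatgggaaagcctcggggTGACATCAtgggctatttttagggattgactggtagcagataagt
Atf3: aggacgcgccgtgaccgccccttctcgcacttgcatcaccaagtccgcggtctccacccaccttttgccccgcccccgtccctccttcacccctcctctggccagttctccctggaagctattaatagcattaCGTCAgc

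In this window the Fos promoter held TGACG at positions -129 and -66 and a TATAAA at -33, each counted from the transcription start to the first base of the match. Fosb held TGACG at -60 and Junb at -106. The Egr2 window shown held a CArG box (CC, then A or T in the middle, then GG) at -72, flanked by TGACG at -111 and its reverse complement, CGTCA, at -55. The window of another Egr2 start (chr10:67535359-67535498) held neither a CArG box nor TGACG. The shares below are for single windows, not for genes with several starts. Jun held TGACATCA at -45, and Atf3 held CGTCA at -7. Of 32851 promoters, a window of the same length held a CArG box in 0.861%, TGACG in 12.8%, TGACATCA in 2.28% and TATAAA in 7.21%. These matches are descriptions of letters, not evidence of binding in these lungs.

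The labelled tissue was checked on its markers: 9 of 10 lung epithelium markers and 8 of 9 measured endothelial markers lay above the median of the array on every array. The exceptions were Nkx2-1 and Cdh5, which did so on 22 and 93 arrays. The values were log2 levels with array medians from 8.61 to 8.73, and the median change over all genes lay between -0.01 and 0.02 on each day. A median correlation under 0.98 with the rest of the group set 3 arrays apart (bleomycin day 21 replicate 4, bleomycin day 35 replicate 3 and saline day 7 replicate 3), and calls that change without them are given with the member. Rises and falls below are those with an adjusted p under 0.05 over all 15707 genes in limma, a linear model that shares spread between genes. Errors of a fold change are limma's standard errors, with 8 mice in each group but for the 7 saline mice of day 14.

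At day 1, 3 of the 10 members rose and 0 fell, where 14.7% of all genes rose and 16.7% fell. Day 2 had the most calls, with 7 members higher and 0 lower, against 14.2% and 13.1% of all genes. With the mean of all saline groups as control the day 2 calls of Fos, Egr1 and Atf3 did not pass. That left 4, and day 2 no longer had the most calls. At day 7 4 rose and 1 fell (25.7% and 21.9% of all genes), and at day 14 again 4 rose and 1 fell (21.9% and 19.7%). At day 21 1 member rose and 4 fell, against 20.5% and 18.9% of all genes. With the mean of all saline groups as control 4 members rose and 1 fell on that day, and the share of all genes under that control was not computed. At day 28 2 rose and 1 fell, near the shares of all genes (11.5% and 11.8%), as were the 1 that rose and the 1 that fell at day 35 (16.9% and 12.5%). The median log2 fold change of the members was 0.21, 0.68, 0.23, 0.52, -0.31, 0.23 and -0.13 over the 7 days. Across days this made 30 calls in 70 comparisons. Myc rose on all 7 days, Fosl1 on the first 4, and Jun fell on the last 5.

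**Figure D1:**
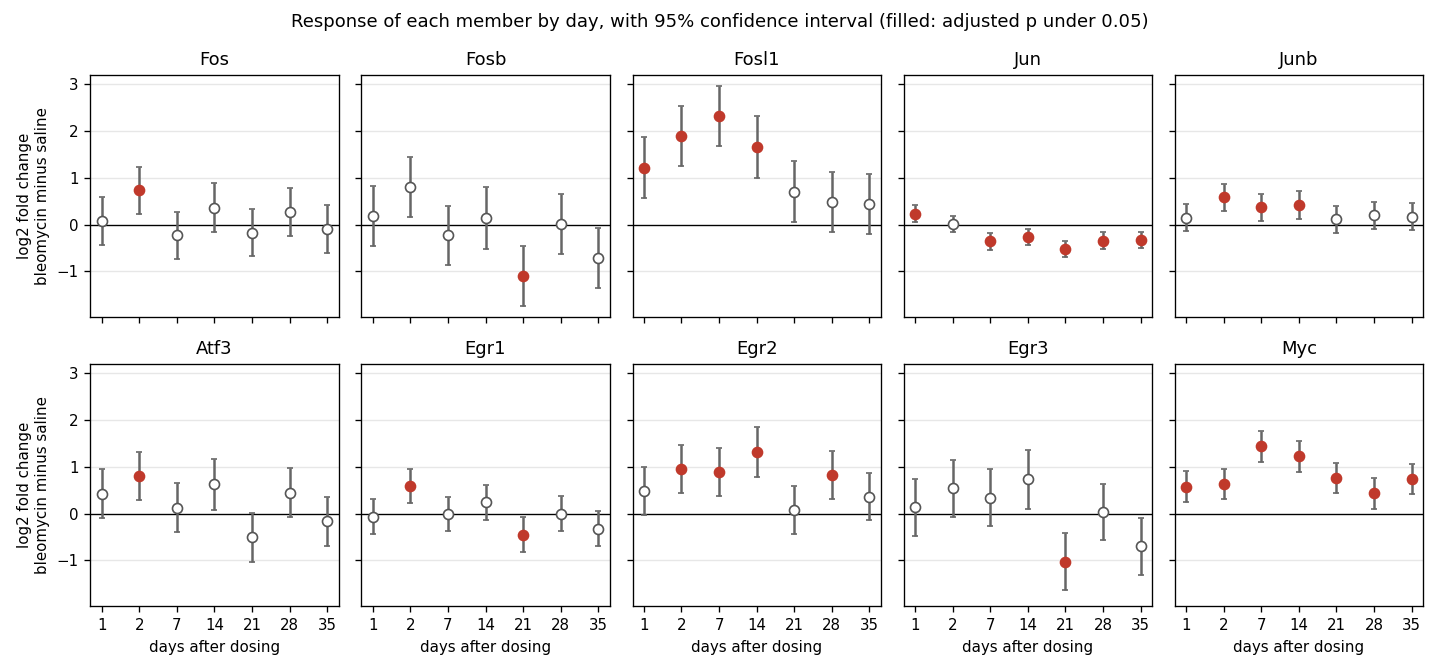
Log2 fold change (bleomycin minus saline, y axis) of each of the 10 members on 7 days after dosing (x axis, not to scale), with the 95% confidence interval of limma. Filled points passed the adjusted p under 0.05; Fosl1 reached 2.32 at day 7, Myc lay above 0 on every day, and Fosb and Egr3 reached their lowest values, -1.11 and -1.03, at day 21.

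Fosl1 encodes FRA-1, a Fos family protein of AP-1 that accumulates in migrating and repairing epithelium, and on its more variable probeset it had the largest increases of the 10 kept probesets on days 1, 2, 7 and 14. At day 1 its log2 level was 5.54 at the lowest, 6.19 at the median and 7.54 at the highest in bleomycin mice, against 4.91, 5.04 and 5.73 in saline mice, and 6 of 8 bleomycin mice exceeded all saline mice. At day 2 the bleomycin mice fell into distinct ranges, with 4.52 and 4.87 in 2 mice and 6.99, 7.17, 7.68, 7.95, 8.40 and 8.47 in the other 6, against 4.86 to 5.31 in saline mice. Thus 2 of the 8 bleomycin mice of day 2 had the Fosl1 level of saline mice or less. By day 7 all 8 bleomycin mice (6.31 to 8.22, median 7.45) lay above the saline mice (4.73 to 5.95, median 5.05).

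The groups were still apart at day 14, with 5.62 to 7.22 (median 6.54) in bleomycin mice and 4.67 to 5.11 (median 4.87) in saline mice. Fosl1 thus rose by 1.22 ± 0.33 at day 1 (adjusted p = 0.00231), 1.90 ± 0.33 at day 2 (2.44e-06), 2.32 ± 0.33 at day 7 (2.47e-09) and 1.66 ± 0.34 at day 14 (2.73e-05) on the log2 scale, up to 5.01-fold. After day 14 the groups overlapped, with 2, 4 and 2 of 8 bleomycin mice above all saline mice at days 21, 28 and 35. At day 21 the bleomycin levels ran from 5.07 to 7.93 (median 5.67), against 4.74 to 6.01 (median 5.26) in saline mice, and 2 bleomycin mice, at 7.21 and 7.93, stood above. At day 28 1 bleomycin mouse reached 7.27, while the other 7 lay at 5.51 or below, against a saline range of 4.66 to 5.09. At day 35 2 bleomycin mice lay at 6.53 and 6.61 and the other 6 at 5.30 or below, against 4.67 to 5.38 in saline mice. The log2 fold changes of 0.71, 0.48 and 0.44 on these days did not pass (adjusted p = 0.0757, 0.302 and 0.337). That of day 21 passed without the arrays that stand apart, with all saline arrays as control, and without bleomycin replicate 1, 2, 4 or 8. A second Fosl1 probeset correlated with the first (r = 0.82 over all arrays) but moved less, with changes of 0.25, 0.39, 0.28 and 0.28 on days 1 to 14, all passing in a fit over 27871 probesets. On that probeset the Fosl1 increases were smaller than those of Myc on each of these days.

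Myc, which encodes the factor that drives growth and ribosome production, rose on all 7 days. At day 1 its log2 levels were 8.32, 8.61 and 9.55 (lowest, median and highest) in bleomycin mice, against 7.85, 8.12 and 8.31 in saline mice, with no overlap. At day 7 they were 8.496, 9.41 and 9.60 in bleomycin mice, against 7.55, 7.77 and 8.31 in saline mice, and at day 14 8.55, 9.08 and 9.46 in bleomycin mice, against 7.64, 7.82 and 8.06 in saline mice. On these days too every bleomycin mouse lay above every saline mouse. The groups overlapped at day 2 (7.95 to 9.52, median 8.90, in bleomycin mice and 7.78 to 8.61, median 8.11, in saline mice) and at days 21, 28 and 35.

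The log2 fold change of Myc was 0.58 ± 0.16 at day 1, 0.63 ± 0.16 at day 2, 1.44 ± 0.16 at day 7 (adjusted p = 2.46e-12), 1.22 ± 0.17 at day 14 (3.75e-09), 0.76 ± 0.16 at day 21, 0.43 ± 0.16 at day 28 and 0.74 ± 0.16 at day 35. The largest of these is a 2.71-fold difference. The day 28 increase was the least secure (adjusted p = 0.0448). It did not pass in 8 of the 16 fits that left out 1 replicate number, where its adjusted p ran up to 0.172. Bleomycin medians of 8.68, 8.22 and 8.48 at days 21, 28 and 35 stood beside saline medians of 8.15, 7.92 and 7.81. The response of Myc was larger on days 7 and 14 than on days 1 and 2, by 0.73 ± 0.17 (adjusted p = 0.000238), and smaller again on days 21 to 35, by 0.69 ± 0.15 (adjusted p = 0.00023).

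Jun, the central Jun family subunit of AP-1, changed in the opposite direction from day 7. At day 1 its log2 levels were 11.64, 11.90 and 12.31 (lowest, median and highest) in bleomycin mice and 11.38, 11.75 and 11.97 in saline mice, a rise of 0.23 ± 0.09 (adjusted p = 0.0342). This small rise was lost in 12 of 27 alternatives, among them the probeset with the highest mean, the mean of both probesets and 1 fit per day. At day 7 every bleomycin mouse (11.34 to 11.63, median 11.51) lay below every saline mouse (11.67 to 12.06, median 11.87), and the same held at day 21 (11.26 to 11.9306, median 11.72, in bleomycin mice and 11.9312 to 12.46, median 12.17, in saline mice), though only just. Jun fell by 0.36 ± 0.09 at day 7, 0.27 ± 0.09 at day 14, 0.53 ± 0.09 at day 21 (adjusted p = 8.29e-07), 0.34 ± 0.09 at day 28 and 0.33 ± 0.09 at day 35. At 1.20- to 1.44-fold lower these were small differences, but they passed in all 27 alternatives on each of the 5 days. The second Jun probeset fell on the same 5 days, by 0.28, 0.20, 0.18, 0.14 and 0.21, and had a change of 0.06 at day 1 that did not pass (adjusted p = 0.296).

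**Figure D2:**
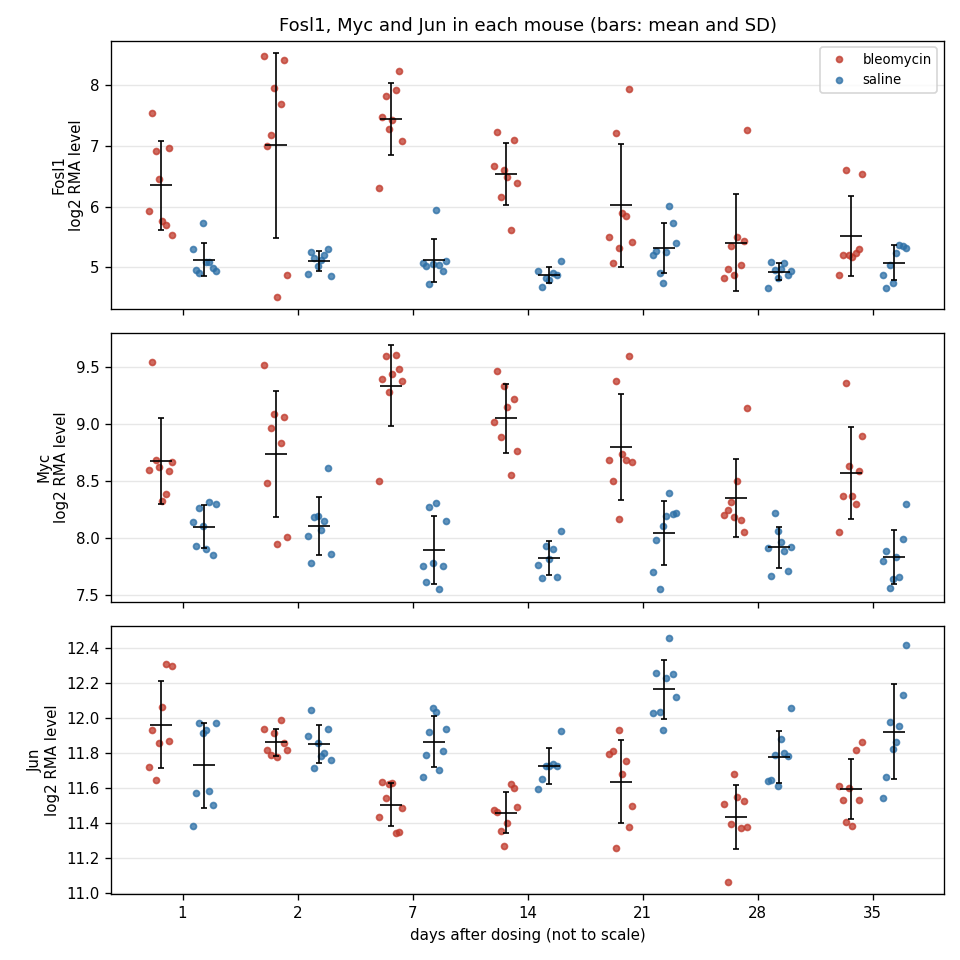
Log2 level (y axis) of Fosl1, Myc and Jun in each mouse by day after dosing (x axis, not to scale), bleomycin in red on the left and saline in blue on the right of each day, with mean and SD. At day 7 all 8 bleomycin mice lay above all 8 saline mice for Fosl1 and Myc and below them for Jun.

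Junb, a Jun family subunit that often restrains Jun, had its largest response at day 2. Its log2 levels were then 8.66, 9.60 and 9.85 (lowest, median and highest) in bleomycin mice and 8.49, 8.78 and 9.20 in saline mice, with 5 of 8 bleomycin mice above every saline mouse. It rose by 0.58 ± 0.15 at day 2 (adjusted p = 0.00108), 0.37 ± 0.15 at day 7 (0.0296) and 0.42 ± 0.15 at day 14 (0.0181). At day 7 the ranges were 9.24 to 9.75 in bleomycin mice and 8.63 to 9.75 in saline mice, and the call was lost with repeated quantile normalization and in 6 of the 16 fits without 1 replicate number. The day 14 call was lost without saline replicate 4 (adjusted p = 0.0644). On days 1, 21, 28 and 35 the differences of 0.14, 0.11, 0.20 and 0.17 did not pass.

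Fos, the founding member of the Fos family and a standard mark of recent cell stimulation, rose only at day 2. Its log2 levels were then 11.41, 12.23 and 12.81 (lowest, median and highest) in bleomycin mice and 10.63, 11.61 and 12.29 in saline mice, with 4 of 8 bleomycin mice above every saline mouse. The rise was 0.73 ± 0.26 (adjusted p = 0.0241), and was lost in 5 of the 16 fits without 1 replicate number and with all saline arrays as control. On the other 6 days the log2 fold change lay between -0.23 and 0.36, with a standard error of 0.26 or 0.27. At day 7, for example, saline mice reached from 10.83 to 12.90 and held all bleomycin values (11.66 to 12.56) within them.

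Fosb, a close relative of Fos with a long-lived splice form in brain, had 7.21, 8.52 and 10.12 (lowest, median and highest) in bleomycin mice at day 2 and 6.60, 7.57 and 9.31 in saline mice. This difference of 0.81 ± 0.32 just missed the threshold (adjusted p = 0.0521), and passed in 10 of 27 alternatives. At day 21 the order was turned, with 7.51, 8.32 and 9.41 in bleomycin mice and 8.66, 9.42 and 10.34 in saline mice, and 5 bleomycin mice lay below every saline mouse. Fosb fell by 1.11 ± 0.32 (adjusted p = 0.0037), and its value against the mean of all saline groups was 0.04 (adjusted p = 0.915), since the saline level of day 21 was itself the highest of the 7 days. The difference of -0.71 ± 0.32 at day 35 did not pass (adjusted p = 0.0897). Without the arrays that stand apart both it (-0.85, adjusted p = 0.0469) and the rise of day 2 (0.81, adjusted p = 0.0475) passed.

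Egr1, a zinc finger factor that activates growth factor and matrix genes, had log2 levels of 12.60, 13.41 and 13.80 (lowest, median and highest) in bleomycin mice at day 2 and 11.96, 12.74 and 13.50 in saline mice. It rose by 0.59 ± 0.19 at day 2 (adjusted p = 0.0118) and fell by 0.45 ± 0.19 at day 21 (0.0453). The day 21 call was lost in 15 of 27 alternatives, among them that without the arrays that stand apart (adjusted p = 0.0562), and the day 2 call with 1 fit per day and with all saline arrays as control. At day 35 5 of 8 bleomycin mice lay below every saline mouse (12.49 to 13.74, median 13.20, in bleomycin mice and 13.23 to 13.76, median 13.38, in saline mice), a difference of -0.32 ± 0.19 that did not pass (adjusted p = 0.196).

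Egr2, best known for its roles in myelination and in T cells and macrophages, rose on 4 days. At day 2 its log2 levels were 9.84, 11.28 and 12.13 in bleomycin mice and 9.68, 10.07 and 10.66 in saline mice (lowest, median and highest), and 5 of 8 bleomycin mice exceeded all saline mice. At day 14 they were 10.87, 11.46 and 12.18 in bleomycin mice and 9.61, 10.13 and 10.996 in saline mice, with 7 of 8 above. At day 28 the groups did not overlap, with 10.50 to 11.22 (median 10.59) in bleomycin mice and 9.50 to 10.11 (median 9.96) in saline mice. Egr2 rose by 0.96 ± 0.26 at day 2 (adjusted p = 0.00251), 0.89 ± 0.26 at day 7 (0.00232), 1.32 ± 0.27 at day 14 (2.19e-05) and 0.82 ± 0.26 at day 28 (0.0124). The day 28 call was lost with all saline arrays as control. The values of 0.49 at day 1, 0.08 at day 21 and 0.36 at day 35 did not pass. At day 7 no bleomycin mouse exceeded the highest saline mouse, which reached 12.24. The second Egr2 probeset followed the first (r = 0.99 over all arrays), with changes from 0.15 to 1.29 and the same 4 calls.

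Egr3, a close relative of Egr2 in lymphocytes and nerve cells, fell at day 21, when all 8 bleomycin mice (9.06 to 9.99, median 9.74) lay below all 8 saline mice (10.37 to 11.29, median 10.53). The fall was 1.03 ± 0.31 (adjusted p = 0.00428), and the call was lost with all saline arrays as control. Its log2 fold changes of 0.54 at day 2, 0.73 at day 14 (adjusted p = 0.0544) and -0.70 at day 35 (0.0733) did not pass. That of day 14 passed in 9 of 27 alternatives, and that of day 35 in 5, among them that without the arrays that stand apart (-0.84, adjusted p = 0.0361). A second Egr3 probeset varied little between arrays and did not follow the first (r = 0.14 over all arrays). Its differences lay between -0.05 and 0.09 and passed on 0 of 7 days, so the Egr3 result rests on 1 probeset.

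Atf3, a repressor and AP-1 partner induced by stress, rose at day 2, with 9.44, 10.44 and 11.21 (lowest, median and highest) in bleomycin mice and 8.93, 9.44 and 10.32 in saline mice. The rise was 0.80 ± 0.26 (adjusted p = 0.0146), and 4 of 8 bleomycin mice exceeded all saline mice. It was lost with 1 fit per day, with all saline arrays as control and without bleomycin replicate 6. At day 14 7 of 8 bleomycin mice exceeded all saline mice (9.93 to 10.64 in bleomycin mice and 9.04 to 9.995 in saline mice), and the difference of 0.63 ± 0.27 missed the threshold (adjusted p = 0.0554) and passed in 7 of 27 alternatives. At day 21 the difference was -0.51 ± 0.26 (adjusted p = 0.114), and with the mean of all saline groups as control it was reversed, at 0.56 (adjusted p = 0.0141).

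**Figure D3:**
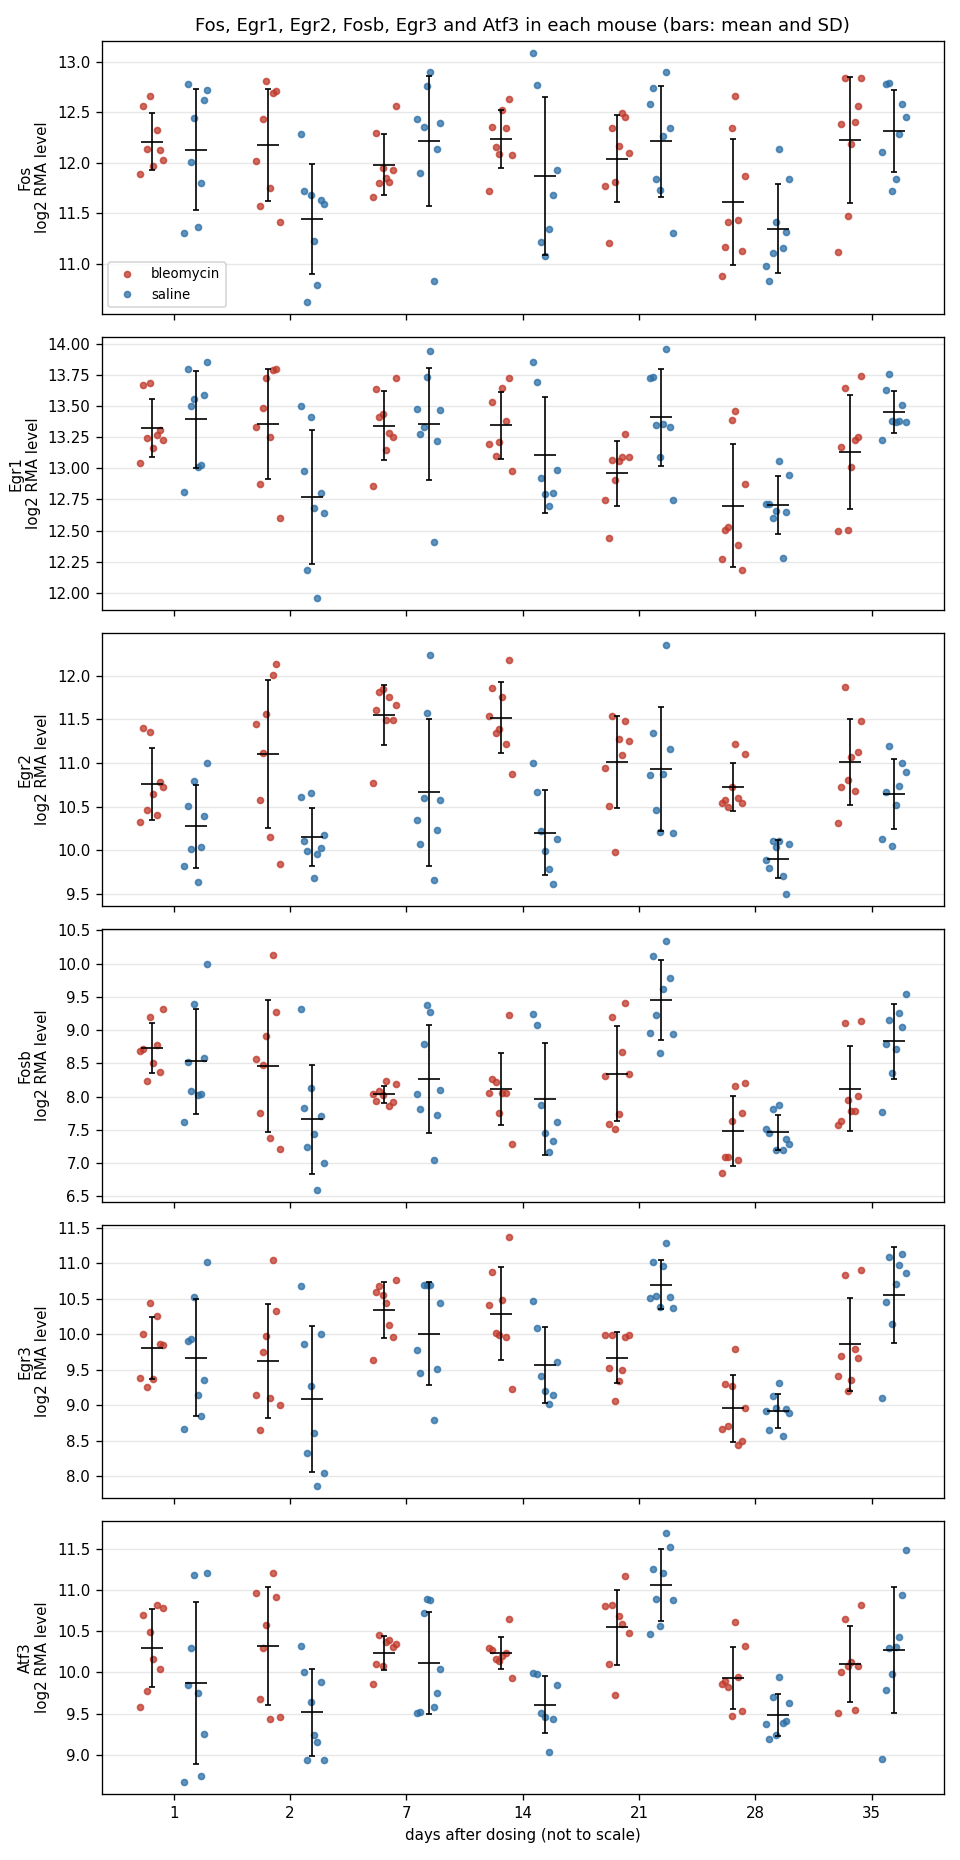
Log2 level (y axis) of Fos, Egr1, Egr2, Fosb, Egr3 and Atf3 in each mouse by day after dosing (x axis, not to scale), bleomycin in red on the left and saline in blue on the right of each day, with mean and SD. Groups overlap for most genes and days; the Egr3 groups of day 21 (9.06 to 9.99 in bleomycin mice, 10.37 to 11.29 in saline mice) and the Egr2 groups of day 28 do not.

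Groups without overlap were counted over the 10 members: 1 at day 1, 0 at day 2, 3 at day 7, 2 at day 14, 2 at day 21, 1 at day 28 and 0 at day 35. Of all genes 2.82%, 3.30%, 14.9%, 16.7%, 4.55%, 3.53% and 5.71% had groups without overlap on these days.

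The change of the response between periods was tested in the same fit. From days 1 and 2 to days 7 and 14, 2 of 10 members changed (36.2% of all genes): Myc, as above, and Jun, whose response was lower by 0.44 ± 0.09. From days 7 and 14 to days 21 to 35, 4 of 10 changed (26.8% of all genes), all with a lower later response. Fosl1 dropped by 1.45 ± 0.30, Egr3 by 1.10 ± 0.28, Myc by 0.69 ± 0.15 and Egr2 by 0.68 ± 0.24. From days 1 and 2 to days 21 to 35, 6 of 10 changed (28.4% of all genes), again all with a lower later response. These were Fosb, by 1.10 ± 0.30, Fosl1, by 1.02 ± 0.30, Egr3, by 0.91 ± 0.28, Atf3, by 0.69 ± 0.24, Jun, by 0.52 ± 0.08, and Egr1, by 0.52 ± 0.17. The adjusted p of Jun was 1.99e-07 and those of the other 5 lay between 0.0025 and 0.0215. Junb and Fos passed none of the 3 comparisons.

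Saline mice, which had received the vehicle alone, also varied. The saline groups differed between days for 7 of the 10 members (limma F test), where 54.1% of all genes did. Fosl1, Junb and Myc did not pass (adjusted p = 0.908, 0.0822 and 0.463). Fosb had the saline means farthest apart, at 7.46 on day 28 and 9.45 on day 21, a range of 1.99 that exceeded that of 99.9% of all genes. Egr3 followed with 8.92 and 10.70 on the same days and Atf3 with 9.48 and 11.06, ranges above those of 99.9% and 99.8% of genes. For Fos, Fosb, Egr1, Egr2, Egr3 and Atf3 the order of the saline days began alike, with day 28 lowest, then day 2, then day 14, and ended with day 21 or day 35. The bleomycin means of Fosb, Egr3 and Atf3 ranged less, by 1.25, 1.39 and 0.61.

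**Figure D4:**
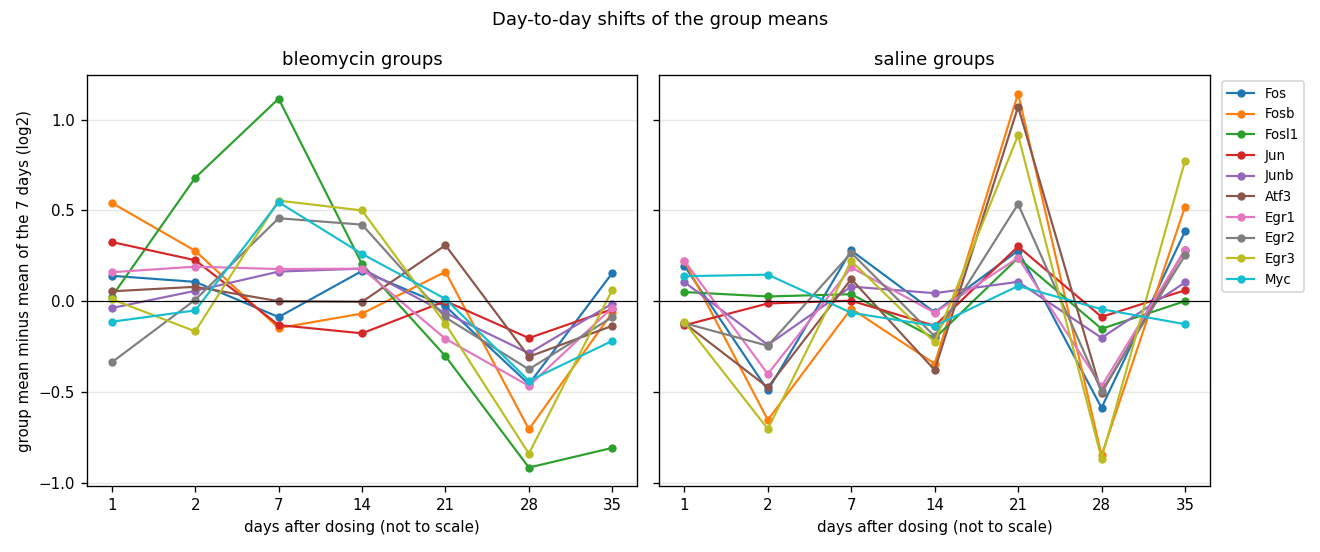
Group mean of each member minus its mean over the 7 days (y axis, log2) by day after dosing (x axis, not to scale), bleomycin groups on the left and saline groups on the right. The saline means of Fosb, Egr3 and Atf3 were highest at day 21 and lowest at day 28; among bleomycin groups Fosl1 was highest at day 7.

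Since saline mice of the same day served as controls, these shifts enter the results of that day. Set against the mean of all 7 saline groups, a comparison added after the saline means were seen, the member calls numbered 2, 4, 6, 5, 5, 5 and 4 over the 7 days. The share of all genes under this control was not computed, so these counts have nothing to be set beside. The day 1 call of Jun, the day 2 calls of Fos, Egr1 and Atf3, the day 28 call of Egr2 and the day 21 calls of Fosb, Egr3 and Egr1 did not pass, while the calls of Fosl1 on days 1 to 14, of Myc on all 7 days and of Jun on days 7 to 35 did. Other calls appeared: Egr3 was higher at day 7 (0.56), Fosl1, Egr2 and Atf3 were higher at day 21 (0.94, 0.61 and 0.56), Fosb, Egr1 and Egr3 were lower at day 28 (-0.83, -0.47 and -0.83), and Junb and Egr2 were higher at day 35 (0.27 and 0.62). The 5 calls of day 21 were thus mostly of other members than with the control of the same day, with Myc higher and Jun lower in both. At day 28 the bleomycin and saline means of that day were alike for Fosb (7.48 and 7.46), Egr1 (12.70 and 12.70) and Egr3 (8.95 and 8.92). A control pooled over days cannot separate a shift shared by both groups of a day from a response to bleomycin.

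Within a day, too, the labile members spread widely among saline mice. Over all 55 saline mice Fos ran from 10.63 to 13.08, Fosb from 6.60 to 10.34, Egr3 from 7.86 to 11.29 and Atf3 from 8.67 to 11.69, the last a range of 8.09-fold. The SD within days was 0.57 for Fos, 0.70 for Fosb, 0.39 for Egr1, 0.54 for Egr2, 0.68 for Egr3 and 0.61 for Atf3, above 96.5% to 99.1% of all genes, whose median was 0.15. Fosl1 (0.27), Junb (0.27), Myc (0.23) and Jun (0.18) were above 67.4% to 89.3%.

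Spread, taken as how far on average a mouse lay from the median of its group, was compared between treatments with a two-sided permutation test within days and adjustment over the 10 members. On average Fosl1 deviated by 0.585 among bleomycin mice and 0.175 among saline mice (adjusted p = 0.0001, from the smallest p that 100000 resamples can give). The Fosl1 probeset was the more variable of a pair, and its saline levels lay near the low end of the array; their part in this difference was not tested. Myc deviated by 0.266 in bleomycin mice and 0.169 in saline mice, and Atf3 by 0.312 in bleomycin mice and 0.441 in saline mice (permutation test, adjusted p = 0.117 each). With the ratio of variances in place of the deviation Myc passed as well (permutation test, adjusted p = 0.00735). The other 7 had adjusted permutation p from 0.423 to 0.852.

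Many pairs of members varied together from mouse to mouse, other than Jun with the rest in bleomycin mice and several pairs with Fosl1 or Myc in saline mice. Deviations of each mouse from its group mean were correlated for all 45 pairs, by permutation within days with adjustment over pairs. Among bleomycin mice 36 pairs passed by Pearson's r and 36 by Spearman's rho, with a median r of 0.67, and among saline mice 35 and 31 passed, with a median r of 0.49. The share over pairs of genes in general was not computed. Fos and Egr1 were the closest pair in both, with r = 0.94 (rho = 0.93) in 56 bleomycin mice and r = 0.90 (rho = 0.89) in 55 saline mice (adjusted permutation p = 1.96e-05 and 2.37e-05 for r, 1.88e-05 and 2.5e-05 for rho). Without the 2 mice farthest from the median of Fos r was 0.93 in bleomycin mice and 0.88 in saline mice, and within single days it lay between 0.80 and 0.97 in bleomycin mice and between 0.69 and 0.98 in saline mice. Fosb and Egr3 had r = 0.78 (rho = 0.71) in bleomycin mice and 0.88 (rho = 0.88) in saline mice, positive on all 7 days in both.

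Fosl1 and Myc had r = 0.89 (rho = 0.86) in bleomycin mice and 0.38 (rho = 0.33) in saline mice (adjusted permutation p = 1.96e-05 and 0.0212 for r, 1.88e-05 and 0.0291 for rho). Without the 2 mice farthest from the median of Fosl1 r was 0.88 in bleomycin mice and 0.24 in saline mice, and within single days it lay between 0.74 and 0.95 in bleomycin mice and between -0.22 and 0.70 in saline mice. Jun stood the other way: its r with the other 9 members lay between -0.24 and 0.15 in bleomycin mice, where 0 of 9 passed the permutation test by either measure (adjusted p 0.0978 or more for r and 0.124 or more for rho), and between 0.26 and 0.81 in saline mice. Jun and Atf3 had r = 0.10 (rho = 0.10) in bleomycin mice and 0.81 (rho = 0.80) in saline mice (adjusted permutation p = 0.512 and 2.37e-05 for r). Within single days r of this pair lay between -0.70 and 0.83 in bleomycin mice and between -0.18 and 0.97 in saline mice. For Jun and Myc it lay between -0.89 and 0.62 in bleomycin mice, so the pooled values of Jun join days of opposite sign. Whether correlations differ between treatments was not tested.

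**Figure D5:**
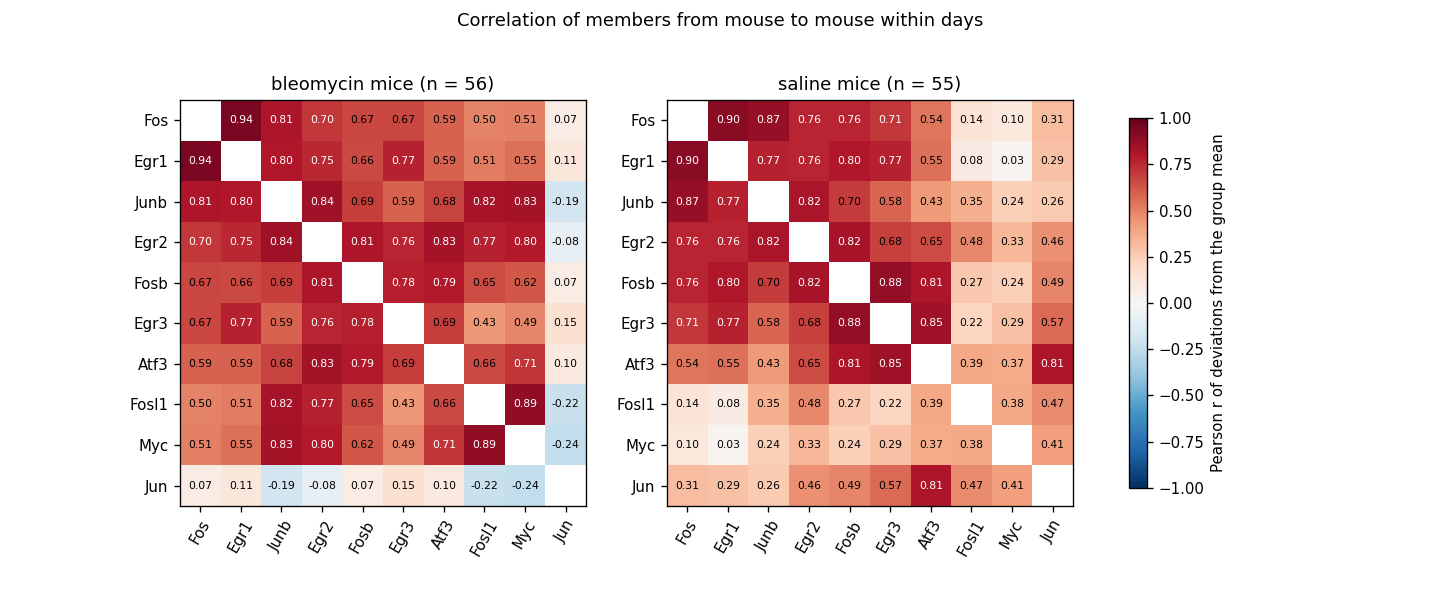
Pearson r between members of the deviations of each mouse from its group mean, for 56 bleomycin mice on the left and 55 saline mice on the right; colour runs from -1 (blue) to 1 (red). Fos and Egr1 have 0.94 in bleomycin mice and 0.90 in saline mice, Fosl1 and Myc 0.89 in bleomycin mice and 0.38 in saline mice, and Jun has the lowest values among bleomycin mice.

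The same bleomycin mice stood out for several members. The 2 mice of day 2 with the lowest Fosl1 (4.52 and 4.87) also had the lowest 2 Myc levels (7.95 and 8.01), Junb levels (8.87 and 8.66) and Egr2 levels (10.15 and 9.84) of their 8. The mouse of day 7 with the lowest Fosl1 (6.31) had the lowest Myc (8.496), Egr2 (10.77), Fos, Egr1, Egr3 and Atf3 as well. At day 14 the mouse with the lowest Fosl1 (5.62) also had the lowest Myc (8.55) and Junb (9.19). It ranked 5 of 8 from the lowest for Fos, Egr1 and Atf3, however, and had the highest Jun. At the late days the mice with the highest Fosl1 had the highest Myc and Junb: 7.93, 9.60 and 9.83 for Fosl1, Myc and Junb at day 21, 7.27, 9.14 and 9.47 at day 28, and 6.61, 9.36 and 9.84 at day 35. The last of these is the array of day 35 that stands apart. Jun did not follow in these late mice, where it ranked 2, 3 and 2 of 8 from the lowest. The mouse with the next highest Fosl1 had the lowest Jun of its group at day 21 (Fosl1 at 7.21). At day 35 the mouse with the next highest Fosl1 (6.53) had the highest Jun. These mice were picked for their values, so the pattern is a description.

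Genes nearest to each member were taken by the correlation of deviations over the 55 saline mice, as a description. Fos lay nearest Zfp36, which encodes an RNA decay factor (r = 0.87), Ier2 (0.83) and Dusp1 (0.82), with 0.85, 0.81 and 0.66 in bleomycin mice. Egr1 lay nearest Nr4a1, an orphan nuclear receptor (0.86), Btg2 (0.80) and Ier2 (0.80), and Egr3 nearest Nr4a1 (0.91), Kcne4 (0.85) and Itga5 (0.82). Fosb lay nearest Btg2 (0.85), Nr4a1 (0.85) and Dusp5 (0.81), and Egr2 nearest Btg2 (0.84), Thbs1 (0.83) and Ier2 (0.79). Junb had Ier2 (0.87), Nfkbiz (0.84) and Zfp36 (0.84), and its r with Nfkbiz was 0.92 in bleomycin mice.

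Atf3 lay nearest Srf, the serum response factor (0.90), Nr4a2 (0.87) and Slc25a25 (0.87), where bleomycin mice had 0.40, 0.48 and 0.77. Jun lay nearest Siah2 (0.88), Dnase1l2 (0.88) and Dnajb4 (0.86), with 0.40, 0.39 and 0.51 in bleomycin mice. Fosl1 had Plaur, the urokinase receptor (0.73), Cdkn1a, a cell cycle inhibitor (0.73), and Mt1, a metallothionein (0.72), with 0.69, 0.77 and 0.85 in bleomycin mice. Myc had the lowest values, with Ddit3 (0.65), Hdgfl2 (0.61) and Plaur (0.60), and 0.01, -0.24 and 0.64 in bleomycin mice.

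Other genes of the same pathways were counted on the day with most calls of each list, where of all genes 14.7% rose and 16.7% fell at day 1, 25.7% and 21.9% at day 7, and 20.5% and 18.9% at day 21. Of 12 measured other AP-1 subunits the most calls fell at day 7, with 2 higher and 6 lower and a median log2 fold change of -0.12. Batf3 rose by 1.03 ± 0.12 and Batf by 0.44 ± 0.10, both AP-1 proteins of immune cells, while Atf7, Jund and Jdp2 fell by 0.24 ± 0.08, 0.22 ± 0.06 and 0.19 ± 0.06. Of 24 measured other immediate early genes 9 rose and 0 fell at day 1, and 8 rose and 7 fell at day 7, the day 7 numbers being near the shares of all genes. At day 7 Socs3, a brake on cytokine signalling, rose by 1.37 ± 0.23, Ptgs2, the inducible cyclooxygenase, by 0.75 ± 0.22 and Plk3 by 0.34 ± 0.10. Nr4a1 fell by 1.32 ± 0.36, Nr4a2 by 0.95 ± 0.24 and Klf2 by 0.67 ± 0.15.

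The 15 MAP kinase phosphatases and feedback genes, which switch off the signals upstream of these factors, had 3 higher and 6 lower at day 7. Spred1 rose by 0.47 ± 0.05 and Dusp6 by 0.28 ± 0.06, and Dusp8, Dusp1 and Dusp16 fell by 0.55 ± 0.17, 0.44 ± 0.13 and 0.44 ± 0.13. Of 14 regulators of the serum response factor and CREB pathways 6 rose and 1 fell at day 1, led by Elk4 (0.42 ± 0.07) and Creb1 (0.41 ± 0.08), with Mrtfa lower by 0.14 ± 0.05. Among 5 Egr partners and corepressors 1 rose and 1 fell at day 7, Cited1 (0.33 ± 0.07) and Cited2 (-0.30 ± 0.06).

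Among 10 Myc partners and antagonists 3 rose and 2 fell at day 21. Mycn, a Myc paralog, was higher by 1.02 ± 0.17, Mxd3 by 0.44 ± 0.15 and Mlx by 0.32 ± 0.05. Mxd4 and Fbxw7 were lower by 0.22 ± 0.08 and 0.17 ± 0.06. Of 9 measured Myc target genes 7 rose and 0 fell at day 7 (median 0.29), and the same numbers at day 14 (median 0.24). Eif4a1, an RNA helicase of translation, rose by 0.46 ± 0.06 at day 7, and the nucleolar genes Nop58 and Ncl by 0.37 ± 0.07 and 0.36 ± 0.06. Of 13 measured AP-1 target genes 11 rose and 1 fell at day 7 (median 0.67), and on other days 6 to 10 rose and 0 or 1 fell. The rises of day 7 were led by Sprr1a, a cornified envelope protein (4.32 ± 0.36), Timp1, a metalloprotease inhibitor (3.29 ± 0.36), and Mmp10, a metalloprotease (3.23 ± 0.33). Mmp9, a metalloprotease of neutrophils among others, fell by 1.02 ± 0.32.

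Lists that share inducers with the members were mixed. Integrated stress response genes had 5 of 10 higher and 2 lower at day 7, with Sesn2 at 0.83 ± 0.10 and Vldlr at -0.74 ± 0.11. Heat shock genes had 2 of 6 higher at day 1 (Hsph1, 0.91 ± 0.29, and Dnajb1, 0.75 ± 0.21) and 1 lower at day 7. Glucocorticoid response genes had 5 of 8 higher and 0 lower at day 1, led by Cdkn1a, which is also a p53 target (2.20 ± 0.24). Circadian clock genes had 5 of 16 higher and 8 lower at day 21, and 15 of the 16 differed between saline days, as did 5 of the 6 heat shock genes, where 54.1% of all genes did. The saline mean of the heat shock genes, relative to each gene's mean over all arrays, ran from -0.52 at day 14 to 0.53 at day 21.

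Cell type markers moved with treatment and day, and their counts stand beside the shares of all genes given above for each day. Macrophage markers, relative to each gene's mean over all arrays, summed to a mean level of 0.58 at day 7 in bleomycin mice (0.49 to 0.71) and -0.22 in saline mice (-0.43 to -0.04), with 7 of 9 markers higher and 0 lower. Neutrophil markers had a mean of 0.72 at day 2 in bleomycin mice (-0.23 to 1.92) and 0.02 in saline mice (-0.63 to 0.54), with 3 of 7 higher. At day 7 the neutrophil list split, with means of 0.24 in both groups: Cd177, Mmp8 and Il1r2 rose by 1.53, 1.19 and 1.08, while Cxcr2, S100a8 and S100a9 fell by 1.12, 0.91 and 0.88. Endothelial markers had 1 of 9 higher and 8 lower at day 7 (means -0.24 in bleomycin mice and 0.12 in saline mice), and lung epithelium markers 1 of 10 higher and 5 lower at day 2 (means -0.07 in bleomycin mice and 0.04 in saline mice). Fibroblast and smooth muscle markers had 3 of 10 higher and 7 lower at day 21. Their mean level was -0.39 in bleomycin mice and 0.08 in saline mice. This list split as well, and its mean joins both directions. The collagen genes Col3a1, Col1a2 and Col1a1 rose, while the largest falls were those of the smooth muscle genes Cnn1, Myh11 and Acta2. The other markers of the list, Pdgfra, Pdgfrb, Tcf21 and Tagln, fell as well, so the split was not one of fibroblast against smooth muscle genes. Lymphocyte markers had 1 of 7 higher and 3 lower at day 14. Red blood cell and platelet markers had 3 of 5 lower at day 7, and cardiac muscle markers 4 of 6 lower at day 35. Among saline groups the mean of the neutrophil markers ran from -0.67 at day 1 to 0.51 at day 21, and that of the red blood cell and platelet markers from -0.38 at day 28 to 0.54 at day 21. The part of these cells in the levels of the immediate early genes was not tested.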

How the data were processed

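RNA of whole lungs was amplified by the authors and hybridized to 1 array per mouse. The deposited values are log2 levels: before normalization by RMA, the authors dropped probes whose place in the genome was ambiguous or outdated. The genome build is not given in the sources used here. No measure of depth exists for arrays, and the number of mice limits the precision. Gene symbols came from the platform annotation, with 27871 probesets for 1 gene, 314 for several and 4503 for none, and the most variable probeset of a gene was kept.

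Group means of the 14 combinations of treatment and day were estimated with limma 3.58.1 (lmFit, eBayes) in R 4.3.3, with Benjamini-Hochberg adjustment over all 15707 genes. Contrasts were bleomycin minus saline within a day, differences between periods, and an F test over saline groups. Permutation tests were run in Python with numpy and scipy. The contrast of bleomycin and saline at day 14 and the permutation test of correlations were first checked on simulated data. The period contrasts, the F test and the permutation test of spread were not.

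Members and lists were chosen with earlier results of these data known. Named beside the members were up to 3 genes in each direction from each pathway list on its day with most calls, though not all of them. The 3 genes nearest to each member, with the members themselves left out, were named as well. Alternatives concerned the probeset, a filter on the 30% dimmest genes, normalization, samples in the fit, moderation, array weights, the replicate number, single replicates left out and, added after seeing the data, the control and the arrays that stand apart. The 3 arrays that stand apart were kept in the analysis.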

Additional observations from a re-analysis of the deposited data

Results flagged for a closer look

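A mouse lay far from the rest of its group, by Dixon's criterion, in 7 of 140 groups of a member and a day, and chance alone marks about 1 group in 20. They were Fosl1 in bleomycin replicate 8 of day 28, at 7.27 against 5.51 for the next mouse, and Fosl1 in saline replicate 5 of day 7, at 5.95 against 5.11. Myc in bleomycin replicate 2 of day 1 was at 9.55 against 8.68, in bleomycin replicate 1 of day 7 at 8.496 against 9.28, and in bleomycin replicate 8 of day 28 at 9.14 against 8.5003. Egr2 in bleomycin replicate 1 of day 7 was at 10.77 against 11.49, and Egr1 in saline replicate 6 of day 7 at 12.41 against 13.21. Replicate 8 of day 28 and replicate 1 of day 7 each stood out for a pair of members.

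The response to bleomycin differed between periods in 12 comparisons. On days 7 and 14 it was lower than on days 1 and 2 for Jun (-0.44) and higher for Myc (0.73). On days 21 to 35 it was lower than on days 7 and 14 for Fosl1 (-1.45), Egr2 (-0.68), Egr3 (-1.10) and Myc (-0.69). On days 21 to 35 it was lower than on days 1 and 2 for Fosb (-1.10), Fosl1 (-1.02), Jun (-0.52), Egr1 (-0.52), Egr3 (-0.91) and Atf3 (-0.69). The saline levels of Fosb, Egr3, Atf3 and Egr1 on days 21 and 35 were among the highest of the time course, and their part in these differences was not tested.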

How the results depend on the processing

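Under 9 other ways of processing the number of members past the threshold stayed within 1.5 times the main count on every day, except that array weights gave 4 in place of 2 at day 35. With all saline arrays as control there were 4 in place of 7 at day 2, 5 in place of 3 at day 28 and 4 in place of 2 at day 35, and 4 directions were reversed: Fosb at day 21 (0.036) and day 28 (-0.831), Egr3 at day 28 (-0.833) and Atf3 at day 21 (0.56). Without the arrays that stand apart there were 4 at day 35. With the ratio of variances 2 members differed in spread in place of 1. The causes were not tested. With 1 replicate number left out of all days, the counts ran from 2 to 3, 5 to 9, 4 to 5, 4 to 7, 4 to 6, 2 to 3 and 2 to 4 over the 7 days, from 25 to 33 over all 70 comparisons and from 10 to 13 for the 30 period comparisons, and stayed at 7 for saline days. The count of 4 at day 35 came without bleomycin replicate 8 or saline replicate 1. The replicate block gave the same 30 calls in number. Deviations of same-numbered bleomycin and saline mice correlated between -0.33 and 0.41 over 55 pairs, with 23 over 0.1. Differently numbered mice were not correlated for reference, so these values cannot show whether the numbers pair the mice. The main fit did not treat them as pairs. The filter on dim genes, which left 10995, removed Fosl1, whose mean level exceeded that of 13% of genes. Values that passed under neither setting were counted as unchanged even where their sign turned. Signals near background, as for Fosl1 in saline mice, limit how far a fold can be read.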
